A study of Mus musculus with 8 samples.

Results

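The genes described here encode chromatin modifiers and remodelers: histone methyltransferases, demethylases, acetyltransferases and deacetylases, arginine methyltransferases, bromodomain proteins, ATP-dependent remodelers with their subunits, and the enzymes that add or oxidise DNA methylation. They were chosen by symbol alone, by the prefixes Kmt, Kdm, Hdac, Kat, Setd, Prmt, Brd, Chd and Arid followed by a digit, by Smarc, and by Ezh1, Ezh2, Dnmt and Tet symbols. The rule found 109 of the 21049 gene symbols measured, and 78 of them reached a mean of at least 1 FPKM (fragments scaled to gene length and library total) over the 8 samples and were tested. RNA was sequenced from 4 alcohol samples, described as alcohol-fed, and 4 control samples, treated with saline, to ask what alcohol changes in the liver. All 8 are labelled as wild-type mouse liver with hepatocyte as the cell type, and the design text names C57BL/6 mice. The labels also name AML12, a mouse hepatocyte line, for every sample. The dose and duration of alcohol, the sex and age of the animals, and whether each sample came from a separate animal are not stated in the sources used here. The p-values therefore measure the spread between these samples.

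DNA in the nucleus is wound around histones, and enzymes write, erase and read chemical marks on histone tails that open or close genes to transcription. Methyl groups can mark active or silent genes depending on the residue, acetyl groups generally go with active chromatin, and deacetylases working in corepressor complexes remove them. Remodelers of the SWI/SNF, ISWI and CHD families use ATP to slide or evict nucleosomes. In liver these factors act at the enhancers and promoters that set hepatocyte identity, and several of them depend on metabolites such as acetyl-CoA, S-adenosylmethionine and alpha-ketoglutarate.

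Library totals recovered from the FPKM values were 37132631 to 38407511 reads in the alcohol samples and 33872595 to 34789814 reads in the control samples. Tested chromatin genes held 61 to 5980 reads per library. Hepatocyte markers (8 of 8 tested) summed to 51898 to 61558 FPKM with alcohol and 57628 to 64491 FPKM in controls, so the labelled cell type was present throughout. Markers of other liver cells were present too, and none was at 0 in every sample. The 8 endothelial markers all rose and summed to 66.4 to 79.3 FPKM with alcohol, against 14.5 to 21.9 FPKM in controls. Stellate cell markers (6 of 8 tested, 3 higher and 1 lower) summed to 99.3 to 141 FPKM with alcohol and 39.1 to 68.5 FPKM in controls. The sums of the Kupffer cell and macrophage, cholangiocyte and red blood cell lists overlapped between the groups, and the dividing-cell sum was 14.0 to 17.2 FPKM with alcohol and 20.5 to 28.1 FPKM in controls. Neutrophil markers summed to 35.2 FPKM in alcohol replicate 1 and at most 4.83 FPKM in the other samples, and lymphocyte markers to at most 4.35 FPKM in any sample. The part of these cell types in the results below was not tested. In bulk RNA, fewer cells of a type and less RNA per cell cannot be told apart. Whether the samples were liver tissue or AML12 cells was not tested. Alcohol replicates 2 and 4 were more alike than any other pair of one group, with a chi-square per gene between recovered reads of 10.1, where the next lowest was 56.6. Averaging them into 1 sample left 48 chromatin genes higher and 1 lower, beside 3791 and 1099 of all 9228 tested genes.

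Most tested chromatin genes were more abundant with alcohol on the deposited FPKM scale, while under scalings that centre the median of all genes a minority rose. Of the 78, 49 (62.8%) rose, 1 (Smarcd2) fell and 28 did not pass the threshold, an adjusted p of 0.05 from limma over all 9228 tested genes. The background was high: 44.2% of all tested genes rose and 13.0% fell. The median log2 change of the chromatin genes was 0.41, beside 0.24 for all tested genes, where a log2 change is the difference of group means of log2(FPKM + 1), alcohol minus control, and understates the change of low genes. The 4 alcohol values lay wholly above the 4 control values in 41 chromatin genes (52.6%, against 39.5% of all tested genes) and wholly below them in 1 (against 10.7%). The changes were moderate, since 5 chromatin genes (6.41%) rose with a log2 change of at least 1, close to the 7.07% of all tested genes that did so. The control mean was below 1 FPKM in 9 of the 78, which entered the test through their alcohol values and all rose, beside 85.2% of all tested genes with such a control mean. Among the other 69, 40 rose, beside 41.4% of all tested genes with a control mean of at least 1 FPKM.

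**Figure D1:**
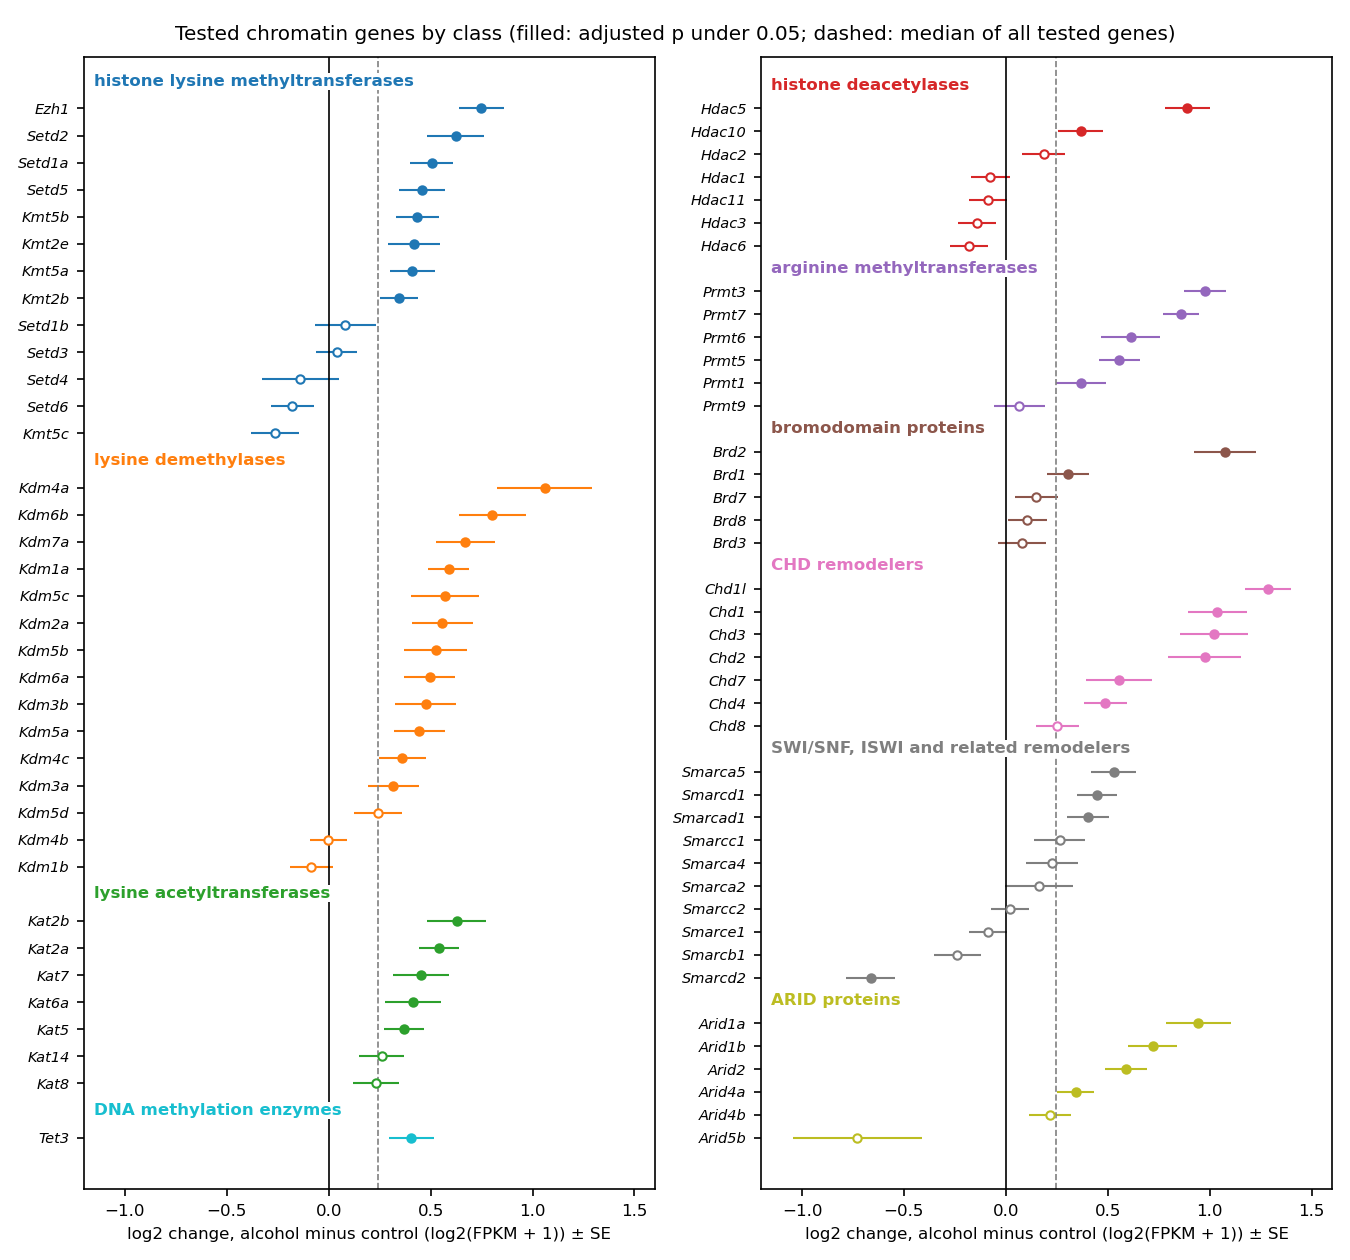
Log2 change (alcohol minus control, on log2(FPKM + 1), horizontal axis) of 77 of the 78 tested chromatin genes, by class, with the standard error as a bar; filled points passed an adjusted p of 0.05 and the dashed line is the median of all tested genes. The CHD remodelers and demethylases lie mostly right of the line, the histone deacetylases mostly left of it, and Smarcd2 is the filled point below 0.

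These directions are relative to the library total. Median-of-ratios scaling shifted the median change of all tested genes to 0.00 and left 27 chromatin genes higher and 13 lower, with 25.9% of all tested genes higher and 26.5% lower. After quantile normalization 19 chromatin genes were higher and 12 lower, with 24.6% of all tested genes higher and 24.6% lower. On the TPM scale the counts were 56 and 1, with 52.7% and 8.82% of all tested genes. The median of the chromatin genes minus that of all tested genes was 0.16 as deposited, 0.21 after median-of-ratios scaling, 0.11 after quantile normalization and 0.20 on the TPM scale. In each of the 18 fits made, 19 chromatin genes (24.4%, against 21.5% of all tested genes) were higher, among them Arid1a, Arid1b, Arid2, Brd2, Chd1, Chd1l, Chd2, Chd3, Ezh1, Hdac5, Kat2b, Kdm1a, Kdm4a, Kdm6b, Kdm7a, Prmt3, Prmt5 and Prmt7. Smarcd2 was lower in each (1.28%, against 7.22% of all tested genes). Leaving out 1 sample at a time gave 44 to 51 chromatin genes higher, beside 3537 to 4362 of all 9228 tested genes. The number of chromatin genes lower was 2 without control replicate 1, 2 or 3 and 3 without control replicate 4. The added genes were Smarcb1, Arid5b and Setd4 in turn for the first 3, and both Arid5b and Kmt5c for the last.

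The CHD remodelers, ATPases that move nucleosomes, had the highest median change of the 10 classes. Of 7 tested, 6 rose as deposited, beside 44.2% of all tested genes, with a class median log2 change of 0.97. After median-of-ratios scaling 4 rose and none fell, beside 25.9% and 26.5% of all tested genes. Chd1l, a remodeler recruited to damaged DNA by poly(ADP-ribose), stood at 9.48, 8.93, 8.65 and 8.07 FPKM in the alcohol samples, against 3.62, 3.35, 2.68 and 2.48 FPKM in the control samples. The groups were far apart, with a log2 change of 1.29 ± 0.11 (SE, n = 4 each, adjusted p = 1.02e-05), the largest among the 78. Chd1, which binds the methylated histone tail at active promoters, measured 7.33, 4.07, 4.97 and 4.59 FPKM with alcohol and 2.33, 1.8, 1.97 and 1.87 FPKM in controls, a log2 change of 1.04 ± 0.15 (adjusted p = 0.000213). Chd3 and Chd4 are the alternative ATPases of the NuRD corepressor complex, which joins remodeling to deacetylation. Chd3 stood at 13.8, 11.9, 11.6 and 11.3 FPKM with alcohol and at 8.39, 5.25, 4.23 and 4.73 FPKM in controls, a log2 change of 1.02 ± 0.17 (adjusted p = 0.000516). Chd4, the most abundant of the class, averaged 15.4 ± 1.6 FPKM with alcohol and 10.7 ± 0.97 FPKM in controls (SD, n = 4 each). Its log2 change of 0.49 (adjusted p = 0.00250) was 0.21 after median-of-ratios scaling, where it no longer passed (adjusted p = 0.120). Chd2 measured 5.67 FPKM in alcohol replicate 1 and 2.80 to 3.04 FPKM in the other alcohol samples, against 0.934 to 1.70 FPKM in controls, a log2 change of 0.97 ± 0.18 (adjusted p = 0.00112). It shares 2628 exon bases on the same strand with 1810026B05Rik, so reads of those 2 genes are uncertain.

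**Figure D2:**
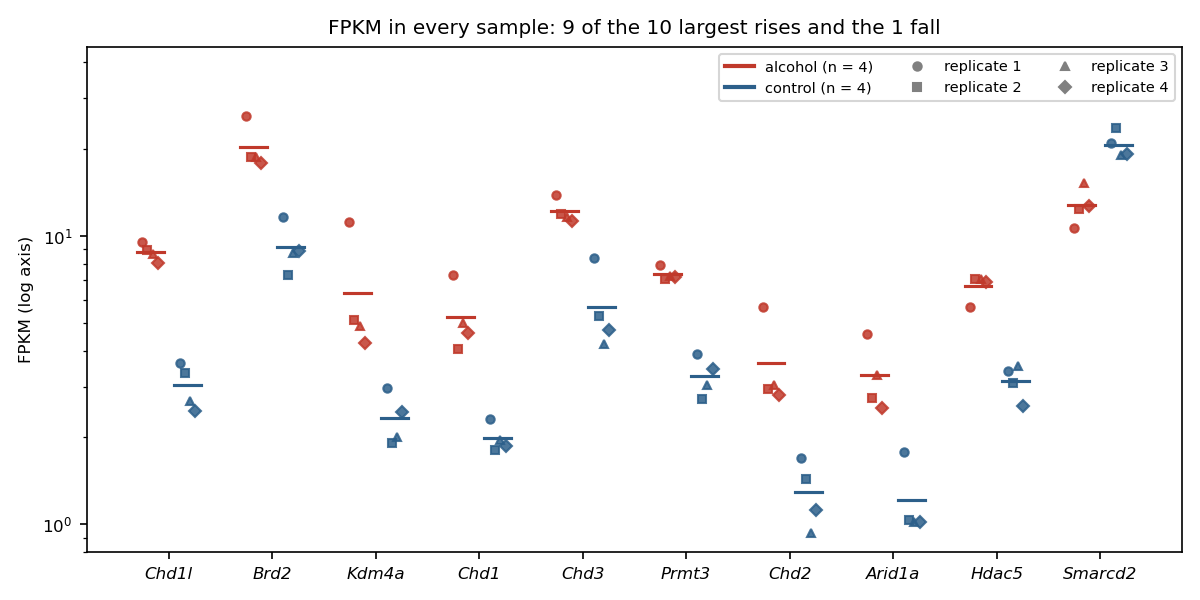
FPKM (log axis) in every sample for 9 of the 10 chromatin genes with the largest rises and for Smarcd2, the 1 that fell; points are samples, with a shape per replicate number, and lines are group means (n = 4). The alcohol points lie above all control points in 9 genes and below them in Smarcd2, and alcohol replicate 1 stands above the rest of its group in Kdm4a (11.1 FPKM), Chd2 (5.67 FPKM) and Brd2 (25.9 FPKM).

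Promoter sequences of 3 genes that rose in every fit, from 3 classes, and of a deacetylase that did not pass the threshold are printed so that they can be compared. They were taken from RefSeq (GRCm38.p6, 250 bases before to 50 after the start), with CpG dinucleotides in capitals. These 4 were chosen after their values were seen, among genes whose RefSeq start lies at the end of the annotated gene. Chd1l lies at chr3:97610141-97610440 on the minus strand, Prmt3 at chr7:49778108-49778407 on the plus strand, Hdac5 at chr11:102230123-102230422 on the minus strand, and Hdac2 at chr10:36974294-36974593 on the plus strand.
Chd1l: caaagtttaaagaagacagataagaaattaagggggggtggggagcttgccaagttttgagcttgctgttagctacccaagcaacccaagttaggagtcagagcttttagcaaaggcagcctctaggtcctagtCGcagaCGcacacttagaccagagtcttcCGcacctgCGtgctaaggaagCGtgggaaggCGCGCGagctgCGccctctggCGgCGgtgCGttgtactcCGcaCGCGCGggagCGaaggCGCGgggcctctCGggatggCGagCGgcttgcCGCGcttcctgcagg
Prmt3: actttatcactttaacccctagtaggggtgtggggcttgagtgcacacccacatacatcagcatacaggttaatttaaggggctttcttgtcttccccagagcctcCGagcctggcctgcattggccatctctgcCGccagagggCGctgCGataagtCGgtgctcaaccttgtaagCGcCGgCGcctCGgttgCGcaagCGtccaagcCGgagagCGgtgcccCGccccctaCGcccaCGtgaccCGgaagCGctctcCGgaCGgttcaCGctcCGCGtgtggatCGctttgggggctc
Hdac5: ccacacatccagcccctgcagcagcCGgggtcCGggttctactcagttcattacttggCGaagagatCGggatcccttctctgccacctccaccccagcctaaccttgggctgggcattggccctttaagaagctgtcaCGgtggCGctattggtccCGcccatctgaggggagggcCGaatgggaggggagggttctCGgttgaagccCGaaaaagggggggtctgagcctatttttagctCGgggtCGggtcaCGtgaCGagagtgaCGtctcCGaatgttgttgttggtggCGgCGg
Hdac2: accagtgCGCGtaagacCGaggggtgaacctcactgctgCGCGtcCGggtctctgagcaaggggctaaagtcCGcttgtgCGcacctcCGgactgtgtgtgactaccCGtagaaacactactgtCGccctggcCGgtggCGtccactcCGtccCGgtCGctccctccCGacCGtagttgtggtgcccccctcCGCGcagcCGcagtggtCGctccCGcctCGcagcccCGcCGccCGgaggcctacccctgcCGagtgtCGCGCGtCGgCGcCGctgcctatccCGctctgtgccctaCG
The windows hold 24, 24, 18 and 36 CpG in that order, and thus both the risen genes and Hdac2 have CpG-rich promoters. Of the 109 chromatin genes, 86 matched the table by symbol, with 117 promoters. The median was 24 CpG per promoter, beside 20 for promoters of the tested genes and 7 for all promoters in the table. Observed over expected CpG was 0.822, 0.763 and 0.384 in that order. The 5 short motifs searched on both strands were CCGGAAG (bound by ETS factors), the NRF1 motif, TGACGTCA (the CRE), CACGTG (the E-box) and CCAAT (the CCAAT box). The ETS motif was in 12.8% of 47 promoters of chromatin genes that rose and in 25% of 24 promoters of tested ones not past the threshold, beside 19% of promoters of all tested genes. The CCAAT box was in 38.3%, 41.7% and 37.9%, and the E-box in 12.8% (6 of 47), none of 24, and 10.5%. The NRF1 motif was in 1 of the 47 and none of the 24, with 2.21% of promoters of all tested genes, and TGACGTCA in none of the 47 and 1 of the 24, with 3.10%. No motif contains another. Prmt3 carries the ETS, E-box and CCAAT motifs, Hdac5 carries the E-box and CCAAT motifs, and the Chd1l and Hdac2 windows hold none of the 5.

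Arginine methyltransferases, which methylate histones and many RNA-binding proteins, rose in 5 of 6 tested, beside 44.2% of all tested genes. Their class median log2 change was 0.58. After median-of-ratios scaling 4 rose and none fell, beside 25.9% and 26.5% of all tested genes. These methyltransferases were among the shorter transcripts, with a median recovered length of 2608 bases. Prmt3, a cytosolic enzyme whose main substrate is a ribosomal protein, stood at 7.94, 7.10, 7.26 and 7.19 FPKM with alcohol and at 3.89, 2.72, 3.04 and 3.44 FPKM in controls. The alcohol samples were tightly grouped above every control, with a log2 change of 0.98 ± 0.10 (SE, adjusted p = 3.90e-05). Prmt7, which adds a single methyl group, measured 8.71, 7.67, 8.06 and 7.62 FPKM with alcohol and 3.98, 4.32, 3.78 and 3.80 FPKM in controls, a log2 change of 0.86 ± 0.09 (adjusted p = 3.19e-05). Prmt5, the main symmetric dimethylase, averaged 7.22 ± 0.73 FPKM with alcohol and 4.58 ± 0.43 FPKM in controls (SD, n = 4 each). Prmt1, which makes most asymmetric dimethylarginine, was the most abundant of the class at 9.24, 12.2, 9.04 and 11.7 FPKM with alcohol and 7.72, 7.08, 7.76 and 9.04 FPKM in controls. The highest control reached the lowest alcohol sample. Its log2 change of 0.37 ± 0.12 (adjusted p = 0.0230) was 0.10 after median-of-ratios scaling (adjusted p = 0.549). The call was also lost without alcohol replicate 2 (adjusted p = 0.0706), alcohol replicate 4 (0.0684), control replicate 2 (0.0656) or control replicate 3 (0.0537).

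Lysine demethylases rose in 12 of 15 tested with none lower, beside 44.2% and 13.0% of all tested genes. Their class median log2 change was 0.50. After median-of-ratios scaling 5 rose and 1 fell, beside 25.9% and 26.5% of all tested genes. The class holds flavin-dependent enzymes and a larger group of iron- and alpha-ketoglutarate-dependent ones. Kdm4a, a Jumonji enzyme acting on marks of silent and of transcribed chromatin, measured 11.1 FPKM in alcohol replicate 1, then 5.09, 4.86 and 4.24 FPKM in the other alcohol samples, against 2.97, 1.91, 2.0 and 2.46 FPKM in controls. Its log2 change was 1.06 ± 0.23 (adjusted p = 0.00295), and it also passed without alcohol replicate 1. Kdm6b, which removes the polycomb methyl mark and is induced by inflammatory signals in macrophages, stood at 3.08, 1.21, 1.89 and 1.39 FPKM with alcohol and at 0.662, 0.559, 0.628 and 0.596 FPKM in controls. Every alcohol value lay above every control, with a log2 change of 0.80 ± 0.17 (adjusted p = 0.00207). Alcohol replicate 1, the highest, was also the sample with the neutrophil marker sum of 35.2 FPKM; the Kupffer cell and macrophage sums were 26.0 to 48.8 FPKM with alcohol and 21.1 to 76.8 FPKM in controls, and the part of these cells in the result was not tested. Kdm1a, a flavin-dependent enzyme, averaged 4.54 ± 0.32 FPKM with alcohol and 2.69 ± 0.38 FPKM in controls (adjusted p = 0.000700). Kdm5c is X-linked and Kdm5d is its Y-linked counterpart. Kdm5c measured 7.62, 4.63, 5.59 and 4.35 FPKM with alcohol and 4.48, 2.72, 3.13 and 3.17 FPKM in controls, overlapping at 1 control, with a log2 change of 0.57 ± 0.17 (adjusted p = 0.0131) that became 0.33 and did not pass after median-of-ratios scaling. Kdm5d had a log2 change of 0.24 ± 0.12 and did not pass (adjusted p = 0.0992), with 1.45 to 2.22 FPKM with alcohol and 1.05 to 1.64 FPKM in controls. Kdm6a, the X-linked relative of Kdm6b, stood at 1.1 to 1.95 FPKM with alcohol and 0.643 to 1.11 FPKM in controls, a log2 change of 0.50 ± 0.12 (adjusted p = 0.00625) that became 0.24 and did not pass after quantile normalization (adjusted p = 0.0930). Kdm1b and Kdm4b did not pass as deposited, with log2 changes of -0.09 and -0.00. Kdm1b passed as lower after median-of-ratios scaling (-0.33, adjusted p = 0.0125) and quantile normalization (-0.40, 0.00543), and Kdm4b after quantile normalization (-0.32, 0.00621).

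Lysine methyltransferases rose in 8 of 13 tested, beside 44.2% of all tested genes, with a class median log2 change of 0.41. After median-of-ratios scaling 4 rose and 3 fell, beside 25.9% and 26.5% of all tested genes. Ezh1, a catalytic subunit of the polycomb repressive complex found in resting cells, measured 3.07, 2.37, 2.87 and 2.62 FPKM with alcohol and 1.57, 1.28, 1.15 and 0.911 FPKM in controls. The groups did not overlap, with a log2 change of 0.75 ± 0.11 (adjusted p = 0.000289). Ezh2, its counterpart in dividing cells, was below the expression minimum at 0.623 to 0.785 FPKM with alcohol and 0.278 to 0.473 FPKM in controls. Setd1a, which methylates promoter histones, averaged 2.84 ± 0.40 FPKM with alcohol and 1.70 ± 0.21 FPKM in controls (adjusted p = 0.00227), but shares 3523 exon bases on the same strand with Gm49388. Setd2, which marks the bodies of transcribed genes, stood at 3.34 to 5.47 FPKM with alcohol and 2.07 to 2.73 FPKM in controls (adjusted p = 0.00323). Neither Setd1a (adjusted p = 0.109) nor Setd2 (0.0714) passed after quantile normalization. Setd3 was the most abundant of the class, at 23.2, 22.9, 27.9 and 23.9 FPKM with alcohol and 25.6, 23.3, 24.4 and 21.7 FPKM in controls. It methylates actin in mammals and was placed in this class by its symbol prefix. Its log2 change was 0.04 ± 0.10 (adjusted p = 0.756). After median-of-ratios scaling the change became -0.25 and Setd3 passed as lower (adjusted p = 0.0448), but not after quantile normalization (0.325).

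Lysine acetyltransferases rose in 5 of 7 tested, beside 44.2% of all tested genes, with a median log2 change of 0.41. After median-of-ratios scaling 2 rose and none fell, beside 25.9% and 26.5% of all tested genes. Kat2a and Kat2b are interchangeable acetyltransferase subunits of the SAGA and ATAC coactivator complexes. Kat2b measured 16.7, 15.9, 18.5 and 16.4 FPKM with alcohol and 15.0, 9.70, 9.15 and 9.26 FPKM in controls, so control replicate 1 stood close to the alcohol samples. The log2 change was 0.63 ± 0.15 (adjusted p = 0.00414). Kat2a averaged 7.31 ± 0.78 FPKM with alcohol and 4.69 ± 0.25 FPKM in controls, a log2 change of 0.54 ± 0.10 (adjusted p = 0.000935). The Kat2a call was lost after quantile normalization (log2 change 0.23, adjusted p = 0.0939). Kat5, Kat6a and Kat7 passed as deposited with log2 changes of 0.37, 0.41 and 0.45, and did not pass after median-of-ratios scaling (adjusted p = 0.264, 0.145 and 0.137) or quantile normalization (0.844, 0.435 and 0.384). Kat8 and Kat14 did not pass.

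Of the histone deacetylases, a small class with 7 tested, 2 rose and none fell, beside 44.2% and 13.0% of all tested genes. The class median log2 change was -0.08. After median-of-ratios scaling 1 rose and 4 fell (Hdac1, Hdac3, Hdac6 and Hdac11), beside 25.9% and 26.5% of all tested genes. Hdac5, a class IIa enzyme that shuttles between cytoplasm and nucleus, stood at 5.64, 7.06, 7.08 and 6.91 FPKM with alcohol and at 3.4, 3.08, 3.54 and 2.56 FPKM in controls. The groups were well apart, with a log2 change of 0.89 ± 0.11 (adjusted p = 9.95e-05). Hdac10, which also deacetylates polyamines, averaged 3.42 ± 0.34 FPKM with alcohol and 2.44 ± 0.43 FPKM in controls, with a log2 change of 0.37 ± 0.11 (adjusted p = 0.0159) that did not pass after median-of-ratios scaling. The catalytic subunits of the major nuclear corepressor complexes did not pass as deposited. Hdac1 stood at 7.42 to 8.96 FPKM with alcohol and 7.73 to 9.25 FPKM in controls. Hdac2 stood at 6.86 to 7.67 FPKM with alcohol and 5.28 to 7.40 FPKM in controls. Hdac3, whose loss in mouse liver causes fat accumulation, stood at 11.5 to 13.4 FPKM with alcohol and 12.4 to 14.2 FPKM in controls. Hdac11, the most abundant deacetylase here, measured 15.2, 16.6, 16.2 and 15.3 FPKM with alcohol and 17.3, 18.5, 16.1 and 15.6 FPKM in controls, a log2 change of -0.09 ± 0.09 (adjusted p = 0.434) that became -0.37 after median-of-ratios scaling (adjusted p = 0.00484).

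Among bromodomain proteins, readers of acetylated lysine, 3 of 6 tested rose, beside 44.2% of all tested genes. The class median log2 change was 0.23, beside 0.24 for all tested genes. After median-of-ratios scaling 2 rose and none fell, beside 25.9% and 26.5% of all tested genes. Brd2 and Brd3 belong to the BET family, which couples acetylated chromatin to elongating RNA polymerase. Brd2 stood at 25.9, 18.8, 18.7 and 17.9 FPKM with alcohol and at 11.6, 7.31, 8.74 and 8.88 FPKM in controls, a log2 change of 1.08 ± 0.15 (adjusted p = 0.000202). It shares 765 exon bases with genes on the other strand, H2-DMa among them, and strand use is not stated. Brd3 did not pass (log2 change 0.08 ± 0.12, adjusted p = 0.588), with 2.31 to 2.81 FPKM with alcohol and 1.73 to 2.94 FPKM in controls.

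In the SWI/SNF, ISWI and related class 3 of 10 tested rose and 1 fell, beside 44.2% and 13.0% of all tested genes. The class median log2 change was 0.19. After median-of-ratios scaling 2 rose and 4 fell, beside 25.9% and 26.5% of all tested genes. Smarcd2, an accessory SWI/SNF subunit known in mouse for its role in granulocyte development, measured 10.7, 12.4, 15.2 and 12.7 FPKM with alcohol and 20.9, 23.5, 19.0 and 19.2 FPKM in controls. All alcohol values lay below all control values, with a log2 change of -0.66 ± 0.12 (adjusted p = 0.000924). Smarcd1, which encodes an alternative subunit, rose, at 1.43 to 1.69 FPKM with alcohol and 0.667 to 1.09 FPKM in controls (log2 change 0.45 ± 0.10, adjusted p = 0.00280). Smarca5, the ISWI ATPase, averaged 7.59 ± 1.1 FPKM with alcohol and 4.92 ± 0.36 FPKM in controls, a log2 change of 0.53 ± 0.11 (adjusted p = 0.00211). After quantile normalization neither Smarcd1 (log2 change 0.17, adjusted p = 0.183) nor Smarca5 (0.22, adjusted p = 0.0727) passed. The alternative SWI/SNF ATPases Smarca2 and Smarca4 did not pass as deposited (log2 changes 0.16 and 0.23). Nor did the core subunits Smarcb1, Smarcc1, Smarcc2 and Smarce1. After median-of-ratios scaling Smarcb1 (-0.51, adjusted p = 0.00649), Smarcc2 (-0.26, 0.0401) and Smarce1 (-0.35, 0.00787) passed as lower. Smarcb1 (adjusted p = 0.00702) and Smarce1 (0.00529) also did after quantile normalization. The ARID proteins include subunits that give SWI/SNF complexes their identity. In that class 4 of 6 tested rose, beside 44.2% of all tested genes. After median-of-ratios scaling 3 rose and 1 fell, beside 25.9% and 26.5% of all tested genes. Arid1a, a subunit of the BAF form, stood at 4.57, 2.73, 3.30 and 2.54 FPKM with alcohol and at 1.78, 1.04, 1.02 and 1.02 FPKM in controls, a log2 change of 0.94 ± 0.16 (adjusted p = 0.000621). Its alternative Arid1b averaged 2.31 ± 0.49 FPKM with alcohol and 1.00 ± 0.19 FPKM in controls (log2 change 0.72 ± 0.12, adjusted p = 0.000618). Arid2, the corresponding subunit of the PBAF form, rose by 0.59 ± 0.10. Arid5b, a partner of the demethylase Phf2 in liver, had the largest standard error of the 78, with 6.73, 3.78, 4.65 and 4.41 FPKM with alcohol and 17.2, 5.67, 11.1 and 4.8 FPKM in controls. The groups overlapped and the log2 change of -0.73 ± 0.32 did not pass (adjusted p = 0.0705); it was -0.42 without control replicate 1, and it passed without control replicate 2 (adjusted p = 0.0422) or control replicate 4 (0.0226). It also passed as lower after median-of-ratios scaling (-0.98, adjusted p = 0.0211), after quantile normalization (-1.03, 0.0174) and with the length trend removed (-0.93, 0.0199).

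Of the 6 DNA methylation enzymes only Tet3, which oxidises methylcytosine, reached the expression minimum. It stood at 1.65, 1.33, 1.51 and 1.23 FPKM with alcohol and at 1.17, 0.888, 0.620 and 0.686 FPKM in controls, a log2 change of 0.41 ± 0.11 (adjusted p = 0.010) that became 0.25 after median-of-ratios scaling (adjusted p = 0.0596) and 0.18 with the length trend removed (adjusted p = 0.0765). The maintenance enzyme Dnmt1 was at 0.598 to 0.813 FPKM with alcohol and 0.672 to 0.990 FPKM in controls. A fit with no expression minimum covered the remaining 31 chromatin genes, whose highest mean was 0.932 FPKM. In that fit 24.2% of all 21049 genes were higher and 6.39% lower, and of the 11821 genes below the minimum 12.7% were higher and 3.09% lower. Among the 31, 13 were higher and 1 (Brd9) lower. The median of mean FPKM was 0.366 in the 31 and 0.0315 in the 11821, so the levels differ. The 13 were Arid3a, Chd9, Dnmt3a, Dnmt3b, Ezh2, Hdac7, Hdac8, Kdm8, Kmt2a, Kmt2c, Prmt2, Setd7 and Tet2. The genes given next were chosen after their values were seen. Dnmt3b, a de novo methyltransferase, stood at 0.655, 0.526, 0.419 and 0.545 FPKM with alcohol and at 0.0696, 0.126, 0.0797 and 0.0868 FPKM in controls (adjusted p = 0.000343). Dnmt3a, the other de novo enzyme, averaged 0.815 ± 0.083 FPKM with alcohol and 0.329 ± 0.075 FPKM in controls (adjusted p = 0.00118). Brd9, a reader in a non-canonical SWI/SNF complex, averaged 0.663 ± 0.067 FPKM with alcohol and 1.20 ± 0.19 FPKM in controls (adjusted p = 0.00876). Arid5a measured 4.50 FPKM in alcohol replicate 1, 0.470 to 0.774 FPKM in the other alcohol samples and 0.0694 to 0.352 FPKM in controls, and did not pass (adjusted p = 0.136).

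Chromatin genes have long transcripts, and the change with alcohol moved with transcript length across all genes. The recovered length, the number of bases that FPKM was divided by, had a median of 5897 bases in the 78 chromatin genes and 3166 bases in all tested genes. Across 9227 tested genes Spearman's rho between this length and the log2 change was 0.32, and across the 78 chromatin genes it was 0.34. With the annotated exon length it was 0.28 over 8901 tested genes and 0.26 over the 78. Recovered length also went with level, with a rho to mean FPKM of -0.41 over all tested genes and -0.52 over the 78. Between mean FPKM and the log2 change rho was -0.20 and -0.11, so length and level were not separated. Genes share the same 8 libraries and are not independent. All tested genes were divided by length into 3 groups of near-equal size. Among the longest, 37 of 50 chromatin genes rose (74%) and none fell, beside 58.6% and 5.17% of all genes of that length group. The chromatin genes of that group had a median length of 8542 bases, beside 6248 bases for all its genes. Their median of mean FPKM was 2.32, beside 3.46, so the group does not match them in length or level. Among genes of middle length 11 of 23 rose (47.8%) and 1 fell, beside 46.7% and 11.1% of all genes. Among the shortest 1 of 5 rose (20%) and none fell, beside 27.4% and 22.8% of all genes. With a loess trend on length removed from each sample, 40 chromatin genes were higher and 4 lower (Arid5b, Hdac6, Kmt5c and Smarcd2), with 44.5% of all tested genes higher and 12.5% lower. By length group, 40% of the shortest, 47.8% of the middle and 54% of the longest chromatin genes were then higher, beside 43.4%, 44.5% and 45.8% of all genes. The median change of the chromatin genes was then 0.22 and that of all tested genes 0.22. Calls made as deposited were lost for 10 genes (Arid4a, Brd1, Kat6a, Kdm3a, Kdm3b, Kdm4c, Kdm5b, Kmt2b, Kmt2e and Tet3), and Kat8 was added.

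**Figure D3:**
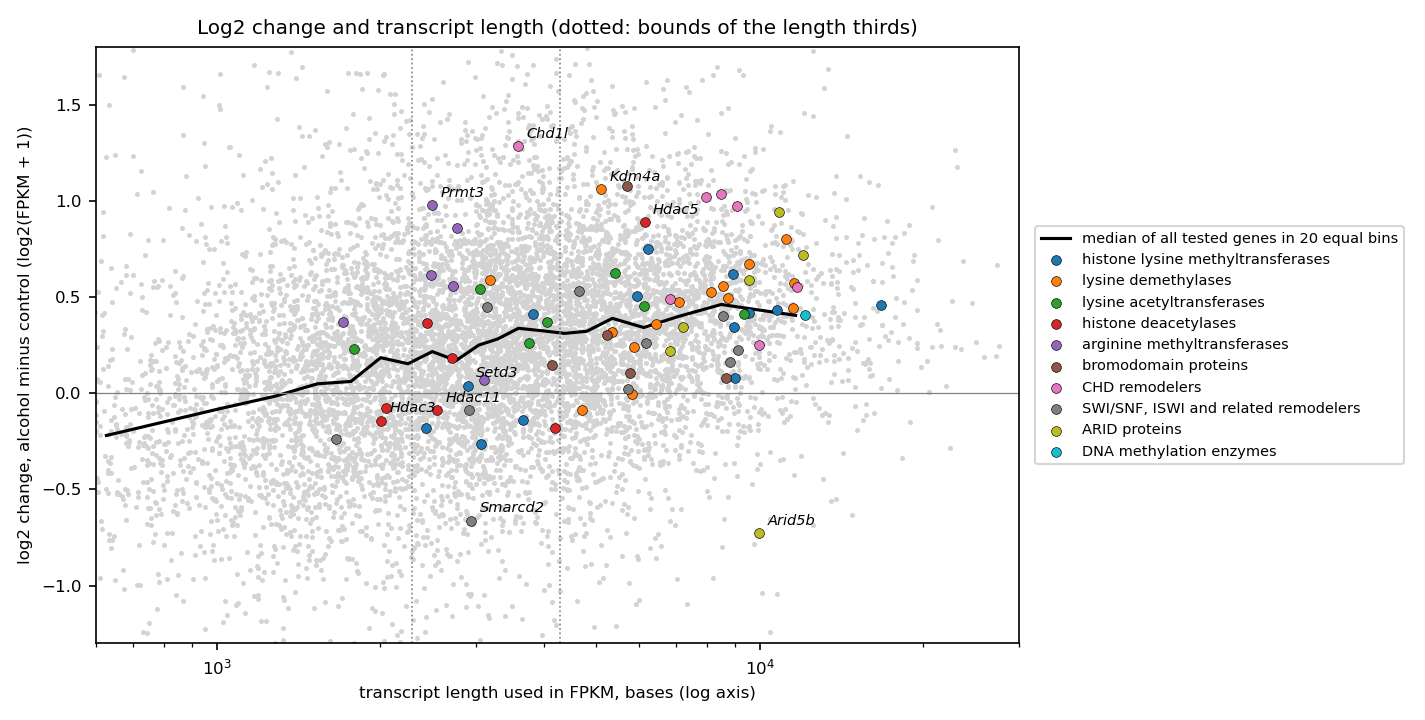
Log2 change (alcohol minus control, on log2(FPKM + 1)) against the transcript length used in FPKM (log axis) for all tested genes within the axes (grey) and 77 of the 78 tested chromatin genes (coloured by class); the black line is the median of all tested genes in 20 bins and dotted lines divide the 3 length groups. The median line climbs with length, most chromatin genes lie in the longest group, and Chd1l and Prmt3 stand well above the line at shorter lengths.

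Classes differed in length as well as in change. Median recovered lengths were 9762 bases for ARID proteins, 8491 for CHD remodelers, 7112 for demethylases, 6219 for lysine methyltransferases, 5721 for bromodomain proteins, 5183 for the SWI/SNF class, 4062 for acetyltransferases, 2608 for arginine methyltransferases and 2543 for deacetylases. Deacetylases and arginine methyltransferases thus had nearly equal median recovered lengths, while their median log2 changes stood at -0.08 and 0.58. Annotated exon lengths ran from 3379 to 8780 bases in the tested deacetylases and from 3425 to 6125 bases in the tested arginine methyltransferases. With the length trend removed, 2 of 7 deacetylases were higher and 1 lower, and 5 of 6 arginine methyltransferases were higher and none lower. The counts higher were then 6 of 7 for CHD remodelers, 5 of 7 for acetyltransferases, 8 of 15 for demethylases, 6 of 13 for lysine methyltransferases, 3 of 6 for ARID proteins, 2 of 6 for bromodomain proteins and 3 of 10 for the SWI/SNF class. The class medians minus that of all tested genes were 0.56 for CHD remodelers, 0.37 for arginine methyltransferases, 0.08 for demethylases and for acetyltransferases, 0.06 for ARID proteins, -0.01 for lysine methyltransferases, -0.11 for bromodomain proteins, -0.22 for the SWI/SNF class and -0.23 for deacetylases. The differences between classes were not tested.

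**Figure D4:**
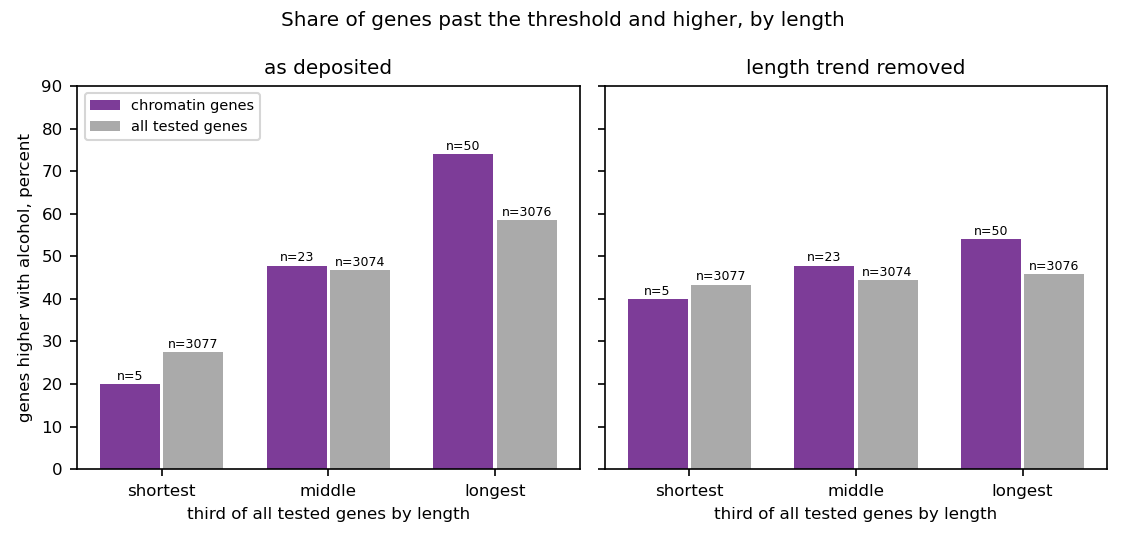
Percent of genes past the threshold and higher with alcohol (bars from 0), in 3 groups of all tested genes by transcript length, for the tested chromatin genes and for all tested genes, as deposited (left) and with the length trend removed (right). The share climbs with length as deposited, to 74% of chromatin genes and 58.6% of all genes in the longest group, and is 40% to 54% for chromatin genes with the trend removed.

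The length pattern was also uneven within the groups. The median deviation of the longest group of genes minus that of the shortest group was 0.36, 0.00, 0.34 and 0.04 in alcohol replicates 1 to 4, on the log2(FPKM + 1) scale, against 0.08, -0.27, -0.26 and -0.26 in control replicates 1 to 4. The median deviation of the chromatin genes was 0.31, 0.08, 0.26 and 0.13 in the alcohol samples and -0.06, -0.27, -0.27 and -0.28 in the control samples. Alcohol replicates 1 and 3 and control replicate 1 were thus high for long transcripts within their own groups. Alcohol replicate 1 was the highest alcohol sample for 46 of the 78 chromatin genes (59.0%, against 33.8% of all tested genes), and control replicate 1 the highest control for 53 (67.9%, against 47.1%). Without alcohol replicate 1 there were 47 chromatin genes higher, and without control replicate 1 there were 51, beside 3821 and 4362 of all 9228 tested genes. With the length trend removed from each sample the counts were the 40 higher and 4 lower given above, and why the trend differed between samples was not tested.

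**Figure D5:**
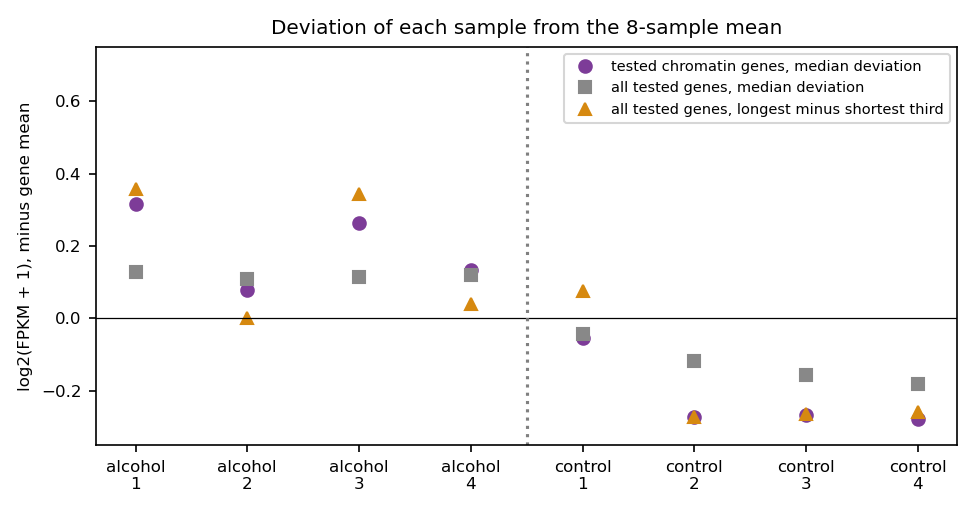
Median deviation of each sample from the mean of the 8 samples on log2(FPKM + 1), for the tested chromatin genes and for all tested genes, with the deviation of the longest minus the shortest group of all genes. Alcohol samples lie at 0.08 to 0.31 for the chromatin genes and control samples at -0.28 to -0.06; the length contrast is near 0 in alcohol replicates 2 and 4.

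Chromatin genes outside the symbol rule were read from 7 lists of complex partners and related enzymes. Of 118 genes, 91 were tested, 62 rose and 3 fell (Rbbp4, Cbx8 and Mbd1), with a median log2 change of 0.40, beside 44.2% higher, 13.0% lower and a median of 0.24 over all tested genes. After median-of-ratios scaling 34 rose and 11 fell, beside 25.9% and 26.5% of all tested genes. Polycomb and MLL complex subunits rose in 16 of 22 tested with 2 lower, and in 10 with 4 lower after median-of-ratios scaling. Rnf2, the ubiquitin ligase of the polycomb complex, averaged 8.07 ± 1.6 FPKM with alcohol and 2.59 ± 0.51 FPKM in controls, a log2 change of 1.33 ± 0.14 (adjusted p = 3.57e-05). Its partner Bmi1 averaged 10.03 ± 0.76 FPKM with alcohol and 4.73 ± 0.72 FPKM in controls (log2 change 0.95 ± 0.11, adjusted p = 6.23e-05). Corepressors that house the deacetylases rose in 12 of 19 tested, and in 6 after median-of-ratios scaling. Among them the NuRD subunit Mta1 averaged 17.3 ± 1.2 FPKM with alcohol and 8.25 ± 0.50 FPKM in controls (log2 change 0.99 ± 0.09, adjusted p = 1.51e-05), and Gatad2a of the same complex rose by 0.78 ± 0.08. Other lysine methyltransferases rose in 6 of 11 tested (4 after that scaling), led by Dot1l, which methylates the nucleosome core at transcribed genes, with 2.96 to 4.32 FPKM with alcohol and 0.644 to 1.20 FPKM in controls, a log2 change of 1.25 ± 0.12 (adjusted p = 2.09e-05), and by Nsd1 (0.78 ± 0.11). Other demethylases rose in 5 of 6 (2 after that scaling), among them Riox1 (0.77 ± 0.10) and the Y-linked Uty (0.58 ± 0.12). Acetyltransferases and coactivators rose in 6 of 7 (3 after that scaling), among them Crebbp (0.64 ± 0.11) and Ncoa3 (0.55 ± 0.11, not past the threshold after quantile normalization, adjusted p = 0.0884). Remodeler subunits rose in 14 of 22 (7 after that scaling), among them Baz1a, an ISWI partner (0.97 ± 0.15), and Phf10 of PBAF (0.63 ± 0.09). DNA methylation readers and partners rose in 3 of 4 (2 after that scaling), among them Tdg, the glycosylase that excises oxidised methylcytosine (1.09 ± 0.16), and Uhrf2 (0.73 ± 0.12), and Mbd1 fell. After median-of-ratios scaling 2 corepressors, 2 remodeler subunits and 1 lysine methyltransferase of these lists were lower. So were 1 gene of the acetyltransferase and coactivator list and 1 of the DNA methylation list.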

How the data were processed

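mRNA of 4 alcohol and 4 control samples was measured. RNA was column-purified and libraries made with a SMARTER kit, per the labels' protocols. The deposited values are FPKM, 1 column per sample, as the authors made them; builds GRCm38 and mm10 are named in the submitters' processing notes, and the aligner, counter, annotation and strand setting: not given in the sources used here. Whole reads and lengths were recovered from FPKM for 21046 of 21049 genes (99.99%) and served for depth, length and 1 alternative. Where reads were few, the length found may be a fraction of the true one. With strand not stated, reads of overlapping antisense genes cannot be told apart. FPKM is relative to the library's own total, so abundant transcripts move all other values.

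Groups were compared with limma 3.58.1 (R 4.3.3) on log2(FPKM + 1) for genes averaging 1 FPKM or more, with moderated variances, a trend on mean level, and 2-sided Benjamini-Hochberg adjusted p-values over all tested genes. The number of samples limits the precision. Members were classed by symbol prefix. The members and lists were chosen with earlier results of these data known, so lists are described by counts and medians without a test. Genes named were the 10 largest rises and up to 10 largest falls past the threshold with groups apart, in each class the most abundant and the 2 with the smallest p, tested DNA methylation enzymes, Kdm5c, Kdm5d and Kdm6a, and 2 genes of each further list; other members are named with counts and ranges or were chosen after their values were seen. The result of 1 member that the rule takes is not reported here, although counts and medians include it. Alternatives were another pseudocount (0.1 FPKM), no expression minimum, median-of-ratios scaling, quantile normalization, the TPM scale, a loess length trend removed (span 0.5), a replicate block, each sample left out, and, chosen after seeing the data, voom on recovered reads and alcohol replicates 2 and 4 averaged. Coordinates and overlaps come from GENCODE M21, promoters from RefSeq.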

Additional observations from a re-analysis of the deposited data

Results flagged for a closer look

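In 7 of 60 groups of 4 samples of the 30 named chromatin genes, 1 sample stood apart from the other 3 by Dixon's test at the 95% level, which chance does in about 1 in 20 groups. Alcohol replicate 1 was the highest of its group for Kdm4a (11.1 FPKM, others 4.24 to 5.09), Brd2 (25.9 FPKM, others 17.9 to 18.8) and Chd2 (5.67 FPKM, others 2.80 to 3.04), and the lowest for Hdac5 (5.64 FPKM, others 6.91 to 7.08). Control replicate 1 was the highest of its group for Kat2b (15.0 FPKM, others 9.15 to 9.70), Arid1a (1.78 FPKM, others 1.02 to 1.04) and Kdm6a (1.11 FPKM, others 0.643 to 0.688). Each of these 7 genes passed the threshold, with its direction, also without the sample that stood apart.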

How the results depend on the processing

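The planned edgeR fit was not run, since the deposited unit is FPKM, and voom on recovered reads took its place. It gave 50 chromatin genes higher and 1 lower, with a median log2 change of 0.61, beside 44.3% and 12.9% of all tested genes. The median was 0.60 with a pseudocount of 0.1 FPKM, 0.60 on the TPM scale, 0.21 after median-of-ratios scaling, 0.11 after quantile normalization and 0.22 with the length trend removed. Median-of-ratios scaling left 27 higher and 13 lower, quantile normalization 19 and 12. The number lower was 4 with the length trend removed and 2 with no expression minimum. Leaving out 1 sample gave 44 to 51 higher, 1 to 3 lower and a median of 0.36 to 0.46. Counts higher by class moved over 1.5 times as follows. After median-of-ratios scaling and after quantile normalization they were 4 and 1 for lysine methyltransferases, 5 and 4 for demethylases, 2 and 1 for acetyltransferases, and 1 and 1 for deacetylases. DNA methylation enzymes had 0 under both and with the length trend removed. Quantile normalization gave 3 arginine methyltransferases and 0 of the SWI/SNF class. With no expression minimum 4 deacetylases and 4 DNA methylation enzymes were higher. Among named genes the direction turned for Setd3 (-0.251 after median-of-ratios scaling, -0.122 after quantile normalization, -0.0236 without alcohol replicate 3, and -0.0236 to 0.0745 over all samples left out in turn), for Hdac11 on the TPM scale (0.0524) and for Kdm5d after quantile normalization (-0.0659). The cause was not tested. The fit with the replicate block gave 49 higher and 2 lower, adding Arid5b (adjusted p = 0.00690), beside 4307 and 1380 of all 9228 tested genes. Same-numbered samples correlated at 0.349, 0.216, 0.0706 and 0.280 in their deviations from the group means, and differently numbered ones at -0.425 to 0.29. The main fit did not take the numbers as a pairing, and these values do not decide whether they are one. Tested chromatin genes held as few as 61 reads in a library.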
